A study of Mus musculus with 9 samples.

Results

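Baseline gene expression of the normal adult mouse lung was described from the 3 wild-type arrays of a 9-array study of lung RNA. The wild-type samples, WT1, WT2 and WT3, came from mice of the inbred strain FVB/N. The Genotype entry of WT1 and WT2 reads mCftr+|+, meaning that the mouse Cftr gene was intact and no transgene was carried. WT3 has no Genotype entry and was placed in the group by its name and its description as WT. The other 6 arrays came from FVB/N mice in which the surfactant protein C promoter drove a normal human CFTR cDNA in respiratory epithelium. Of these, 3 (HE) carried SP-C-hCFTR+|-/mCftr+|+ and 3 (HO) carried SP-C-hCFTR+|+/mCftr+|+. The description of HO2 reads SP-C-hCFTR+|-, against its Genotype entry. The transgenic arrays served here only to ask whether samples of the same number deviated together, and no genotype was compared with another. The labels call the mice adult and the samples triplicates, but give no age in weeks, sex or count of animals. Nothing in them says that the 3 wild-type samples came from separate animals, so the spread between these arrays may in part be technical.

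The lung exchanges gas across alveoli lined by flat type I cells and by cuboidal type II cells, which make surfactant, a mixture of lipids and proteins that lowers surface tension. The conducting airways are lined by club cells, which secrete small proteins and carry enzymes of xenobiotic metabolism, and by ciliated cells, which clear mucus. A dense capillary bed, fibroblasts and smooth muscle form the wall, mesothelium covers the surface, and macrophages patrol the air spaces.

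RNA was hybridised to Affymetrix mouse 430A arrays, on which a gene is read by 1 or more probe sets, each a group of short oligonucleotides. The deposited values were linear intensities, called signal here. After removal of 64 control probe sets, 22626 probe sets were ranked within each array, rank 1 being the brightest, and a percentile gives the share of probe sets that were no brighter. A rank orders signals, not molecules, because probe sets differ in how well they bind. Of the ranked probe sets 20380 matched 1 gene symbol, 691 matched several and 1555 matched none. Genes are named only from the first kind, and the 12393 genes so named are each represented by their probe set of highest mean wild-type signal. The median signal was 736 on WT1, 713 on WT2 and 742 on WT3. Signals of the 3 arrays correlated with Pearson's r of 0.965 to 0.969 on the log2 scale, a description across probe sets with no test. No pair of arrays was a copy of another, since the median absolute log2 difference between pairs was 0.24 to 0.25. The arrays differed at the brightest end. Over the 100 brightest probe sets the mean log2 signal was 15.25 on WT1, 15.26 on WT2 and 14.94 on WT3, and WT3 was the lowest array for 96 of those 100. The ratio of 3′ to 5′ signal of Actb, a measure of RNA integrity and labelling, lay between 1.18 and 1.30 on the wild-type arrays, with WT3 at the low end.

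The brightest named gene was Sftpc, which encodes surfactant protein C, a small hydrophobic protein made by type II cells. Its signal was 68135 on WT1, 68142 on WT2 and 50229 on WT3, which placed it at ranks 3, 2 and 2 (log2 signal 15.91 ± 0.25, SD, n = 3). The value of WT3 lay below the other two. The third gene of the order was Scgb1a1, the secretoglobin that defines club cells. It gave signals of 64902, 58441 and 44202 on WT1, WT2 and WT3, at ranks 5, 6 and 10 (log2 15.75 ± 0.29, SD, n = 3). Between them stood Tpt1, a growth-related protein abundant in many tissues, at 61577, 60188 and 49595. After Scgb1a1 came Cbr2, a carbonyl reductase of club cell mitochondria, at 61262, 57422 and 45815. Cyp2f2, the club cell cytochrome that oxidises naphthalene, followed at 60679, 53288 and 43640. A lung-secreted product, a club cell enzyme and a housekeeping protein therefore lay within a narrow span of signal on each array, which the array cannot resolve into an order of transcript number.

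Promoter sequences are shown for 8 of the 30 brightest named genes. These include cell-specific and ubiquitous genes, and a pair of them, Lyz1 and Lyz2, could share signal. No promoter sequence was available for Sftpc, Scgb1a1 or Actb, so these are neither shown nor counted below. Each sequence is the 60 bases that end just before the annotated start, on the gene's own strand, from RefSeq on the build GRCm38.p6. That build is of C57BL/6J, so the FVB/N sequence may differ. Capitals mark the word TATAAA, which many promoters of tissue-specific genes hold, and the word CTCAAG, a core of binding sites of the lung factor Nkx2-1, where a search found them. The coordinates, in the order listed, are chr14:41131728-41131787 on the plus strand (Sftpa1), chr6:72304550-72304609 plus (Sftpb), chr10:117292869-117292928 minus (Lyz1), chr10:117282273-117282332 minus (Lyz2), chr7:27119895-27119954 plus (Cyp2f2), chr11:120732022-120732081 minus (Cbr2), chr14:75845196-75845255 plus (Tpt1) and chr9:78481725-78481784 minus (Eef1a1).
Sftpa1: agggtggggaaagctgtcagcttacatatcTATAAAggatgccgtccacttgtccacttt
Sftpb: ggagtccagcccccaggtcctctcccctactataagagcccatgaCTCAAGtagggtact
Lyz1: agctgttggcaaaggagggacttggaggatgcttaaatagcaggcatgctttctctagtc
Lyz2: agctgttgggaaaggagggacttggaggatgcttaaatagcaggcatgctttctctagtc
Cyp2f2: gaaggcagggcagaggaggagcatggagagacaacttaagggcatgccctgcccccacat
Cbr2: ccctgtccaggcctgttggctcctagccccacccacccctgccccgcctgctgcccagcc
Tpt1: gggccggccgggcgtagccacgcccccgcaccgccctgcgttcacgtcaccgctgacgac
Eef1a1: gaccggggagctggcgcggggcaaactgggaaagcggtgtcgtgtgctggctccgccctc

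In Sftpa1 the word TATAAA began at position -30, counted back from the start, and in Sftpb the word CTCAAG began at position -15. Neither word lay in the other 6 stretches, which says only that these letters are not in these windows. The stretches of Lyz1 and Lyz2 shared 59 of 60 bases. Over windows from 250 bases before to 50 after the start, TATAAA on the gene's strand occurred in 16 of 110 windows (14.5%, 82 genes) of the 100 brightest genes. In all 12566 windows of 9887 genes on the array its share was 6.42%. Between 40 and 15 bases before the start, it lay in 4 of the 110 windows (3.64%) and in 2.45% of all windows. CTCAAG, searched on both strands, lay in 11 of those 110 windows and in 14.4% of all windows. Among windows of type II cell markers, TATAAA was found in 4 of 18 (22.2%) and CTCAAG in 5 of 18 (27.8%). For club cell markers each word was in 2 of 15 windows (13.3%), for endothelial markers each was in 2 of 16 (12.5%), and for ribosomal protein genes TATAAA was in 4 of 46 (8.70%) and CTCAAG in 3 of 46 (6.52%). The words do not overlap each other in their letters, and each match is a description of sequence, with no test.

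The set of brightest probe sets was largely shared by the 3 arrays. Of the 100 brightest on each array, 78 were in the top 100 of all 3 and 123 were in the top 100 of at least 1. The 78 shared probe sets held 49 with 1 symbol (44 genes), 22 with several and 7 with none. Of the 10 probe sets of highest mean rank, 4 had several symbols or none, and the brightest of all is among those and stays unnamed here. Among them are probe sets that match several hemoglobin genes at once, so no hemoglobin level is given.

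The 30 brightest named genes fall into a few roles. Surfactant and type II cell products were Sftpc, Sftpa1, Sftpb, Sftpd and Lyz1. Sftpa1, a collectin of the surfactant that binds microbes, gave 46454, 49986 and 37338 on WT1, WT2 and WT3. Sftpb, the surfactant protein needed for film formation, gave 42215, 37907 and 31692. Sftpd, another collectin, gave 37024, 39000 and 32737. All of these were lowest on WT3, as were nearly all of the brightest probe sets. Lysozyme appeared as Lyz1 (54486, 50968 and 33620) and as Lyz2 (52841, 47366 and 37114). Another Lyz1 probe set was also bright (42420, 44396 and 28195), but a further one gave only 1097.2, 1057.9 and 1096.5, at percentile 60.7. The genes are near-identical copies, and how much of each signal belongs to which gene is uncertain. The place of Lyz1 among the brightest genes therefore depends on the probe set.

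Club cell products among the 30 were Scgb1a1, Cbr2, Cyp2f2 and Scgb3a2, a further secretoglobin of the airway, at 51557, 51624 and 37310. Hopx, a homeodomain protein without DNA binding that marks type I cells, stood at 49178, 48642 and 39539. Stromal genes were Gsn, an actin-severing protein (52312, 53130 and 48679), Inmt, a methyltransferase of lung fibroblasts (49029, 47054 and 40224), and Sparc, a matrix glycoprotein. Gsn had an SD of 0.07 on the log2 scale, the smallest of the 30, and its rank went from 18 on WT1 to 4 on WT3.

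The remaining brightest genes serve most cells. Translation was represented by Eef1a1, the elongation factor that brings aminoacyl-tRNA to the ribosome (57103, 57768 and 45692), and by the ribosomal proteins Rpl41, Rps29, Rps14 and Rpl38. The actin cytoskeleton was represented by Actb (54883, 50872 and 40932) and by the actin-binding thymosins Tmsb4x and Tmsb10. Fth1, the ferritin heavy chain that stores iron, gave 55130, 49879 and 39292. Antigen presentation by MHC class I appeared as B2m, H2-D1 and H2-K1, of which the latter pair belong to a family of near-identical genes and are uncertain. Npc2 (a carrier of cholesterol in lysosomes, also secreted into surfactant), Itm2b (a membrane protein) and Selenop (a selenium transport protein) completed the 30.

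**Figure D1:**
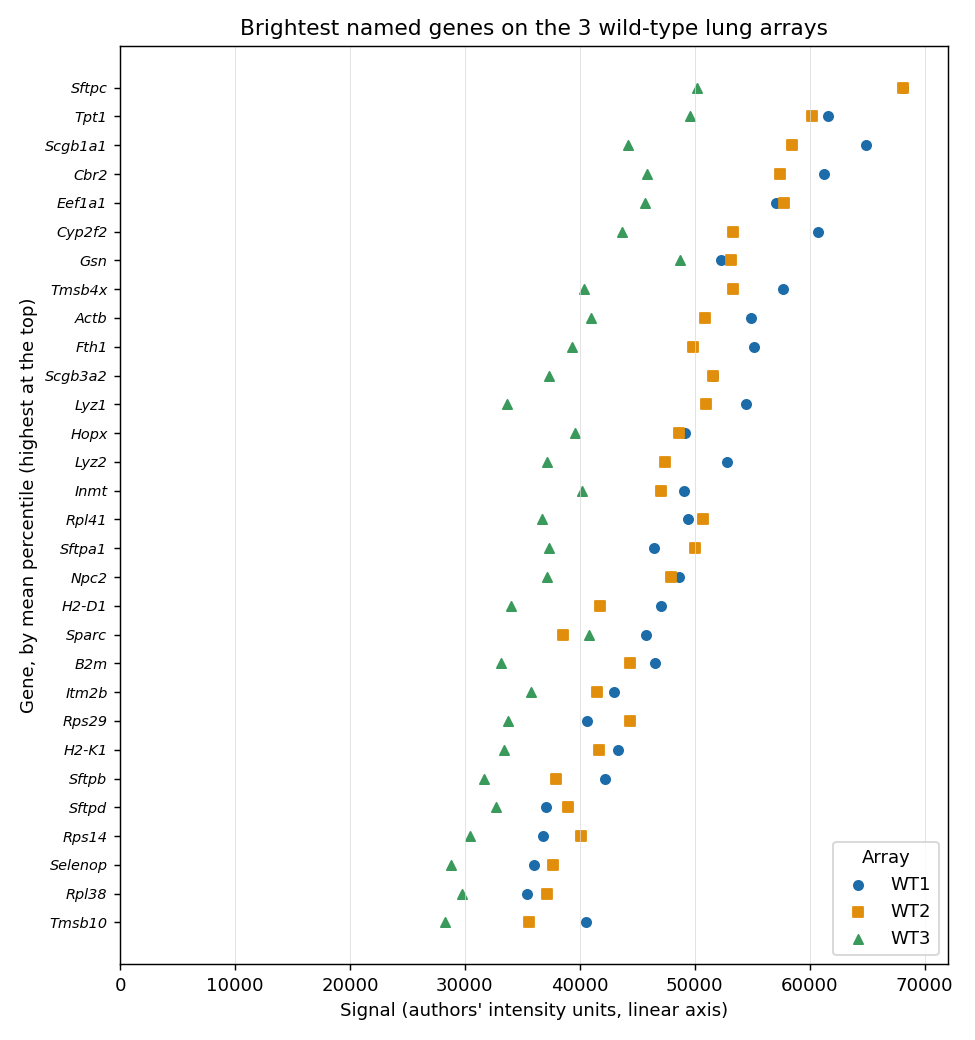
Signal of the 30 brightest named genes on WT1 (circles), WT2 (squares) and WT3 (triangles), on a linear axis in the deposited intensity units, 1 point per array. Sftpc stands at 68135, 68142 and 50229 at the top, and the triangles of WT3 lie left of the other points for every gene but Sparc.

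Marker genes of 28 cell types were then placed within the arrays, with marker genes of 8 other tissues as a reference for signal that a lung need not hold. Over the 5 lists of type II, type I and club cells, endothelium and fibroblasts, 110 of 114 measured genes (96.5%) were above the median signal on all 3 wild-type arrays, and their median percentile was 96.3. Of these, 81 were above percentile 90 on all 3 arrays. Over the 8 lists of liver, pancreas, retina, testis, brain, kidney, intestine and pituitary, 10 of 137 genes (7.30%) were above the median and 0 were above percentile 90, with a median percentile of 19.6. Of all 12393 genes, 52.8% were above the median on all 3 arrays and 10.1% were above percentile 90. The 5 lists are those of highest median percentile among the 28. Over all 28 lists, 245 of 451 measured genes (54.3%) were above the median, near the share of all genes. Above percentile 90 were 113 of the 451 (25.1%), and their median percentile was 59.7. The high share over the 5 lists therefore describes those lists only and is no test of the tissue label. A higher signal in a whole-tissue sample can come from more cells of a type or from more RNA per cell, and these cannot be told apart.

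Type II cell genes had a median percentile of 98.1 over 22 measured genes, and 21 of them were above the median on all 3 arrays. Below the surfactant proteins came Cxcl15, a chemokine known from lung epithelium, at percentile 99.6 (37048, 28837 and 24826). The lowest members were Slc31a1, a copper transporter, at percentile 68.4, Egfl6 at 62.7 and Dlk1, whose signals were 333, 374 and 258. Type I cell genes had a median percentile of 95.7, and all 16 measured were above the median. Cav1, the coat protein of caveolae, gave 28281, 33626 and 25461. Ager, the receptor for advanced glycation end products and a surface marker of type I cells, gave 27670, 21862 and 21901. Cldn18, a tight junction protein, gave 10825, 10595 and 10446, an SD of 0.03 on the log2 scale. The lowest of the type I genes was Col4a4, a basement membrane collagen chain, at percentile 70.2.

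Club cell genes had the highest median percentile of the 28 cell lists, 98.5 over 17 genes. Besides the secreted proteins named above, Aldh1a1, a retinal dehydrogenase, gave 27082, 28747 and 23907, and Hp, the hemoglobin-binding haptoglobin, gave 26959, 23242 and 18005. The lowest club cell members were Sult1d1 at percentile 55.5, Kcnk1 at 53.6 and Chad at 51.6. Ciliated cell genes were dimmer. Their median percentile was 51.2 over the 9 that were measured of 24 listed, and 4 were above the median on all 3 arrays. Tppp3, a tubulin-binding protein, was at 97.0, and Foxj1, the transcription factor of motile cilia, gave 1843, 912 and 1610 on WT1, WT2 and WT3. Foxj1 was lowest on WT2, where 6 of the 9 ciliated genes and 36.1% of all genes had their lowest value.

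Goblet and submucosal gland genes had a median percentile of 28.7 over 16 genes. Their highest members were Pigr, which carries IgA across epithelium, at 83.3, and Muc5b, a gel-forming mucin, at 68.6. Spdef, the goblet cell transcription factor, was at 11.3 and Agr2, which folds mucins, at 4.76. Bpifa1, a secreted defence protein of the upper airway, differed widely among the arrays, at 1858 on WT1, 480 on WT2 and 194 on WT3. Its mean over the 9 arrays was under the filter on dim probe sets that is described with the variation below. Basal and squamous cell genes had a median percentile of 18.9 and neuroendocrine and tuft cell genes 19.5, both close to the 19.6 of the other tissues. Krt5, the keratin of airway basal cells, gave 326, 195 and 295.

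Endothelial genes had a median percentile of 96.4, and all 28 measured were above the median. Ramp2, which with its receptor binds adrenomedullin, was the highest at 22199, 23456 and 23922. Next came Eng, a co-receptor for TGF-beta ligands (14838, 16994 and 16412), and Cldn5, the tight junction protein of endothelium (15191, 16633 and 15549). Unlike the surfactant genes, 16 of the 28 endothelial genes were highest on WT3 and 1 was lowest there. Of all 12393 genes, 29.1% were highest and 33.2% were lowest on WT3. Nos3, the endothelial nitric oxide synthase, was the lowest at percentile 59.2. Lymphatic endothelial genes lay lower, with a median of 60.5 over 9 genes. Pdpn was at 96.0, a gene that type I cells also express, while Prox1, the transcription factor that specifies lymphatic vessels, was at 21.6.

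Fibroblast genes had a median percentile of 95.8 over 31 genes, 30 of them above the median on all 3 arrays. After Gsn and Inmt stood Npnt, a matrix protein that binds integrins, at 22590, 17530 and 23316, and Bgn, a small proteoglycan, at 21232, 14825 and 18247. Col3a1, a fibrillar collagen chain, gave 19672, 16202 and 13295. Fgf10, the growth factor that drives branching in the embryonic lung, was the lowest at percentile 22.4 (186, 246 and 194). Smooth muscle and pericyte genes had a median of 58.7 over 22 genes, with Acta2, smooth muscle actin, at 10732, 7878 and 13059 and Mylk, the kinase of myosin light chain, at 10375, 9497 and 11286. Mesothelial genes had a median of 77.7 over 11 genes. Krt8, Krt18 and Krt19 among them are also expressed by other epithelia, whereas Wt1, a transcription factor of mesothelium, was at percentile 21.1.

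Among immune cells, genes of alveolar macrophages were the brightest list, with a median percentile of 84.8 over 21 genes. Chil3, a chitinase-like protein, gave 15885, 17185 and 16023, and Ctsd, a lysosomal protease, gave 14676, 12676 and 13771. Not all defining genes followed. Pparg, the nuclear receptor required by these cells, was at percentile 15.7 and Marco, a scavenger receptor, at 9.49, near the lower end of the arrays. Monocyte and interstitial macrophage genes had a median of 71.3 over 24 genes. Csf1r, the receptor for the macrophage growth factor, gave 12625, 12305 and 10774, while Cd163, a scavenger receptor, was at 20.9. Neutrophil genes had a median of 57.6, B and plasma cell genes 56.6, dendritic cell genes 52.0, NK cell genes 48.2, T cell genes 38.1, and mast cell and basophil genes 32.2. T cell members ranged from Zap70, a kinase of the T cell receptor, at 83.7 to Ms4a4b at 10.8, with Cd4 at 17.5. Among B lineage genes Xbp1, a factor of secretory cells that other lung cells also use, was at 99.2, Jchain, which joins IgA and IgM subunits, at 90.3, and Pax5, the factor of B cell identity, at 10.6.

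Cardiac muscle genes had a median percentile of 68.5 over 25 genes, of which 17 were above the median on all 3 arrays. Actc1, cardiac actin, gave 7672, 7893 and 10782. Myl4 and Myl7, light chains of atrial myosin, gave 5736, 6297 and 5571, and 5017, 4918 and 4478. Myl2, the light chain of the ventricle, was at percentile 22.2. Cardiac muscle is known to extend along the pulmonary veins of mice, and the arrays hold no position within the lung. Genes of skeletal muscle had a median of 18.4 and of cartilage 18.1, which is in the range of the other tissues. Thyroid genes were at 28.9 with Tg, thyroglobulin, at 348, 194 and 387, and cortical thymocyte genes were at 26.6 with Rag1, a recombinase of lymphocytes, at signals of 75.6, 17.7 and 8.5. Adipocyte genes spread widely around a median of 52.3. Scd1, a fatty acid desaturase that type II cells also express, was at 99.3, and Lep, leptin, and Ucp1, the uncoupling protein of brown fat, were at 8.71 and 4.44.

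**Figure D2:**
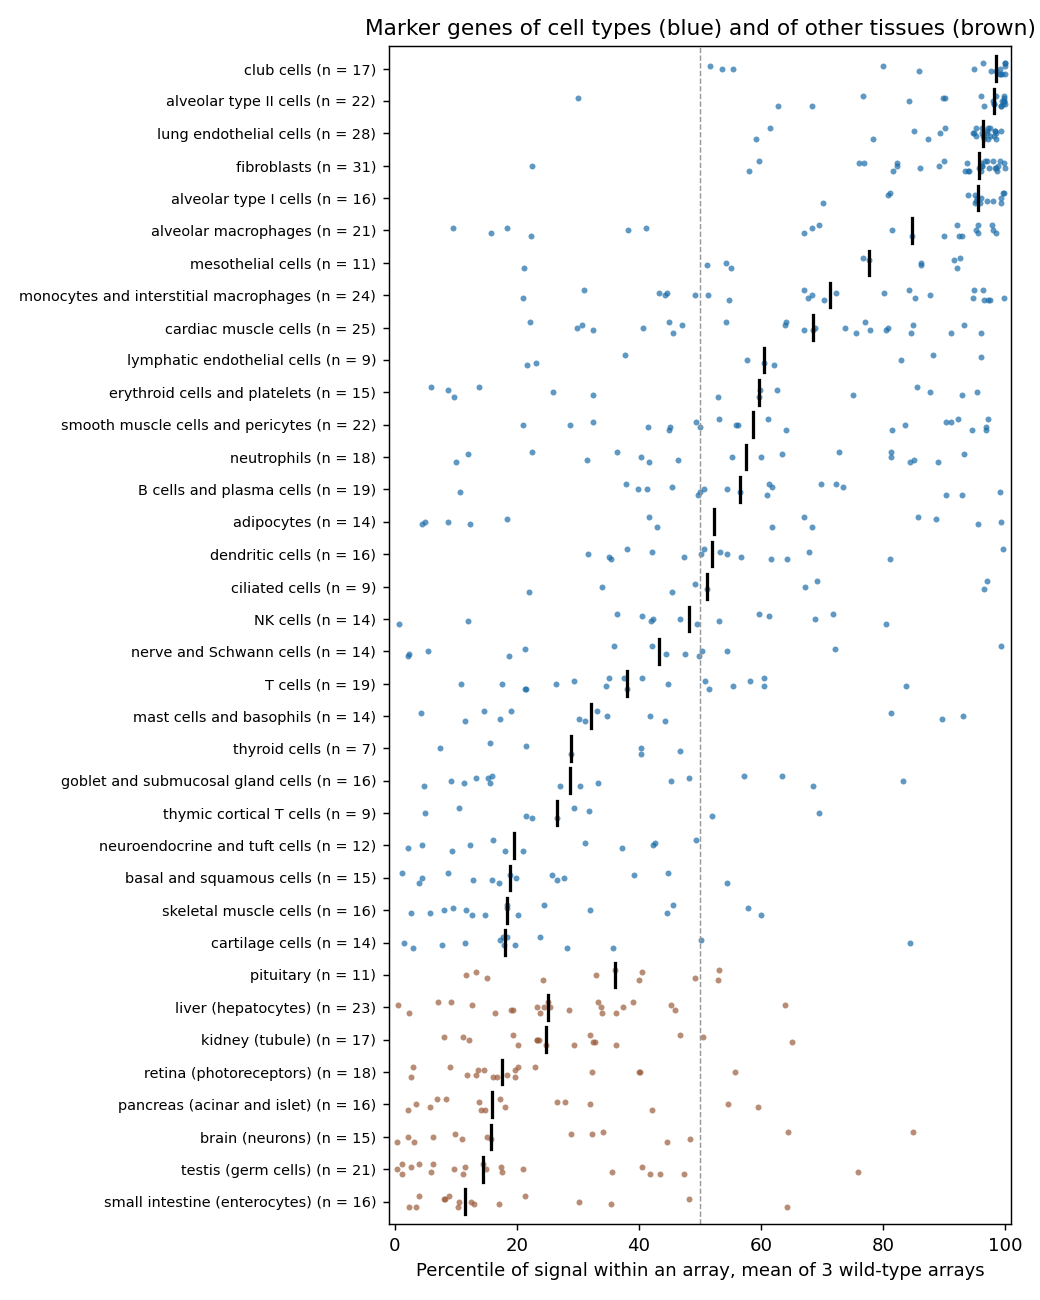
Percentile of signal for every measured marker gene (1 point per gene, mean of the 3 wild-type arrays), by list, with black bars at the list medians and a dashed line at percentile 50. The lists of club, type II and type I cells, endothelium and fibroblasts crowd against the right edge with medians of 95.7 to 98.5, and the 8 lists of other tissues (brown) have medians of 11.5 to 36.1.

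A low percentile does not show that a gene is off, because probe sets of the same gene often disagreed. Of 4956 genes with more than 1 probe set, the highest and lowest probe sets lay a median of 23.0 percentile points apart, and in 813 (16.4%) they lay over 50 apart. The widest gap was in Anxa2, a calcium-dependent membrane-binding protein, with probe sets at percentiles 99.4 and 0.964. Rpsa, Gnas, Rps4x, Ctnna1 and Itgb1 followed, each with a gap above 94. Sftpc itself had a further probe set with signals of 209, 242 and 86.4. Cftr, the chloride channel gene of the study, had a probe set at percentile 58.8 (958, 1201 and 904) and another at 8.93. Values of Marco or Pparg, read by probe sets of unknown performance, carry the same limit.

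Lists of shared cell functions placed housekeeping processes at the top. Cytosolic ribosomal protein genes had a median percentile of 99.2 over the 44 of 80 that could be measured with a probe set of 1 symbol. Genes of the cytoskeleton and housekeeping enzymes followed with 98.6 over 20 genes, led by Tpt1 and Eef1a1, and subunits of oxidative phosphorylation with 93.1 over 58 genes, led by Uqcrb of complex III at 35183, 34101 and 29406. Immediate early genes, which respond to stimuli within minutes, had a median of 90.8 over 32 genes. Dusp1, a phosphatase that ends MAP kinase signals, gave 20709, 20275 and 27542, and Klf2, a factor induced by blood flow, gave 18132, 16911 and 22292. MHC class II presentation genes had a median of 90.1, with Cd74, the invariant chain, at 32683, 35270 and 25398. All 20 heat shock genes measured were above the median on all 3 arrays, with the chaperone Hspa8 at 21054, 26851 and 27773. Genes induced by glucocorticoid were at 82.3, circadian clock genes at 80.5, cholesterol and fatty acid synthesis genes at 76.1 and interferon-induced genes at 75.2. Hypoxia genes were at 57.4 and inflammatory cytokine and acute phase genes at 43.1. Cell proliferation genes were the lowest of these at 36.9, with 5 of 33 above the median on all 3 arrays. Stmn1 and Pcna, the latter the sliding clamp of DNA replication, were exceptions at 96.5 and 95.7, and Cenpe, a motor of the mitotic kinetochore, was at 10.8.

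Sex-linked transcripts were read on each array. Xist, the RNA that coats the inactive X chromosome, gave 1142, 1298 and 1030 by its brightest probe set, and 2 further probe sets were dim. Uty, Eif2s3y and Kdm5d, which lie on the Y chromosome, gave 1071, 1078 and 1052, 664, 970 and 692, and 676, 653 and 772. Neither the X-linked nor the Y-linked set stood apart on any array, and the labels give no sex.

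Variation among the wild-type arrays was measured over 13576 probe sets whose mean log2 signal over the 9 arrays reached the 40th percentile (a log2 signal of 8.90), because dimmer probe sets varied more. The range is the highest minus the lowest log2 value of the 3 arrays, with values under 25.5 set to 25.5 before taking the log. The median range was 0.34, a fold of 1.26, and 95% of probe sets had a range under 0.87, a fold of 1.83. The range reached 2-fold in 417 probe sets (3.07%), of which 369 had 1 symbol (348 genes), and 4-fold in 33. With no filter 3122 of all 22626 probe sets reached 2-fold. A range over a pair of arrays is narrower by construction, and 151 probe sets reached 2-fold without WT1, 228 without WT2 and 208 without WT3. With n = 3 and no known source of the replicates, these ranges describe the arrays and carry no test.

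Spread fell as signal rose. Among the 3394 dimmest of the filtered probe sets the median range was 0.41 and 208 reached 2-fold, while among the 3394 brightest it was 0.30 and 52 did. Among 1443 genes with a mean percentile above 90 the median range was 0.28, and 18 reached 2-fold. The steadiest of these was Itm2c, a membrane protein related to Itm2b, at 8702, 8772 and 8717, a range of 0.01. Rnf130 (5254, 5256 and 5304), Rpa1 (4429, 4469 and 4484) and Paip2 (14535, 14634 and 14443) came next, followed by Dctn1, Scarb2, Mlf2, Ppp3r1, Plxdc2 and Septin4. None of the 10 is a surfactant, club cell or ribosomal gene. Actb, often used as a reference gene, had a range of 0.42.

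The 30 genes of largest range held several that belong together by function. Of them, 3 are on the interferon list, 3 on the neutrophil list, 2 on the mesothelial list and 1 on the immediate early list, and 21 are on no list. Each of these groups is described by the array in which it stood apart. The lists were chosen with earlier results of these data known, and those that stood apart are put forward. Shares of list members set beside shares of all genes are therefore descriptions, with no test. The wild-type mean of 7 of the 30 lay under the filter of 8.90 (Slurp1, Bola2, Snx21, Ccdc114, Ulk1, Aif1l and Cdk5), and they passed it through higher signals on the transgenic arrays. Some of the 30 genes were outlying in 1 probe set only. Of the 14 that had another probe set past the filter, all other probe sets had a range under 2-fold in 9. Cdk5, a kinase of neurons and other cells, gave 880, 148 and 645 by 1 probe set while its other had a range of 0.03. Psmc4, a proteasome subunit, gave 1520, 2298 and 431 while its other had a range of 0.08. For Ulk1, Aif1l, Cd82, Ntmt1, Nacc1, Itsn1 and Itgb1 the other probe sets likewise stayed under 2-fold. For Upk3b and Npr3 the other probe set had a log2 range of 2.03 and 2.08, which is 4.08-fold and 4.24-fold.

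**Figure D3:**
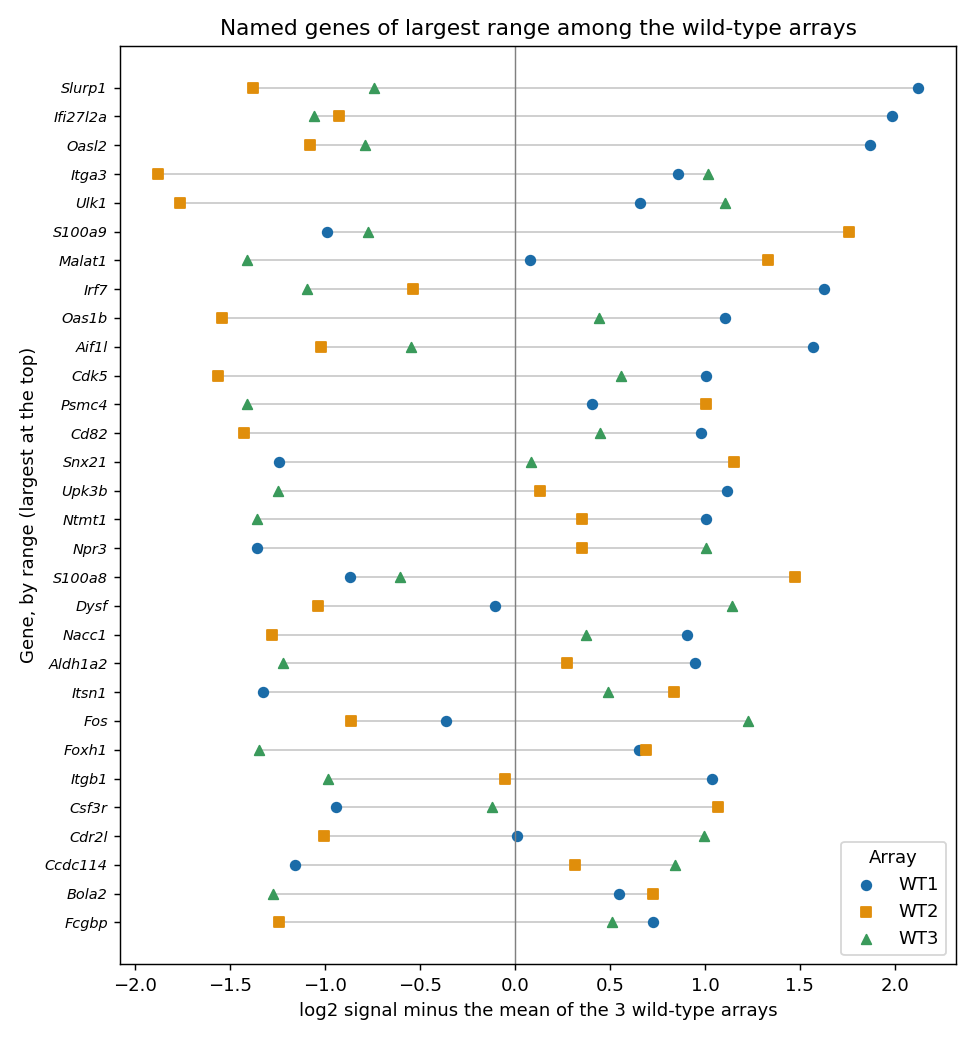
The 30 named genes of largest range, plotted as log2 signal minus the mean of the 3 wild-type arrays, with WT1 as circles, WT2 as squares and WT3 as triangles. Slurp1, Ifi27l2a, Oasl2 and Irf7 have WT1 far to the right, S100a9 and S100a8 have WT2 there, and Fos has WT3 there.

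WT1 stood apart in interferon-induced genes. Ifi27l2a, a small interferon-induced protein, gave 11219 on WT1 against 1491 on WT2 and 1365 on WT3. Irf7, the transcription factor that amplifies the interferon response, gave 4100, 915 and 621. Oasl2, of the oligoadenylate synthetase family, gave 4461, 579 and 707. On WT1 each was several times higher than on the other arrays, which differed little from each other. Rtp4 (10261, 2815 and 3002), Usp18, which removes the ubiquitin-like protein ISG15 (4334, 1459 and 1233), and Rsad2, an antiviral enzyme (4498, 1245 and 1601), showed the same order of WT1 above the rest. Of 29 measured interferon-induced genes, 21 were highest on WT1 and 14 had a range of 2-fold or more. For comparison, 4936 of all 12393 genes (39.8%) were highest on WT1, 3846 on WT2 and 3611 (29.1%) on WT3. Of all genes 30.7% were lowest on WT1, 36.1% on WT2 and 33.2% on WT3, and 11.4% (1408) had a range of 2-fold or more. The list's median deviation from the wild-type mean was 0.38 on WT1, -0.18 on WT2 and -0.35 on WT3, where that of all genes was 0.02, -0.01 and -0.01. Not all members followed. Irf1, a transcription factor of the response, gave 4723, 6999 and 5836, Gbp2, a guanylate-binding protein, gave 3833, 5304 and 3402, and Psmb8, an immunoproteasome subunit, gave 4728, 6145 and 3781, each highest on WT2. Iigp1 and Igtp, GTPases of cell-autonomous defence, were highest on WT1 by a small margin over WT2, at 7594, 6301 and 4745 and at 4526, 4266 and 2561.

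Mesothelial genes were highest on WT1 and lowest on WT3. Upk3b, a uroplakin of mesothelium, gave 4644, 2457 and 1139 by its brighter probe set. Aldh1a2, which makes retinoic acid, gave 1655, 1037 and 369, and Msln, mesothelin, gave 1509, 864 and 457. WT1 was highest for 10 of the 11 genes (39.8% of all genes) and WT3 lowest for 9 (33.2% of all genes), and the median deviations were 0.34, 0.04 and -0.33. Wt1, the dimmest member, gave 262, 190 and 130. Krt8, which most lung epithelia express, was the exception to WT1, at 5456, 4486 and 5885. Igfbp3, a carrier of insulin-like growth factors that is not on the list, gave 1034, 762 and 306.

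The named gene of largest range among the filtered probe sets was Slurp1, a secreted protein of the Ly6 family known from keratinocytes and airway epithelium. It gave 1116 on WT1, 98.9 on WT2 and 154 on WT3, an 11.3-fold range at a mean percentile of 31.2. No other probe set past the filter reads it here. Its wild-type mean log2 lay under the filter, which it passed through transgenic values of 8.86 to 10.03. On the low side of WT1 were Cxcl2, a chemokine that attracts neutrophils (386, 1167 and 1330), Angpt1, a ligand of the endothelial receptor Tie2 (387, 1300 and 1222), and Npr3, the clearance receptor for natriuretic peptides (285, 931 and 1464). Circadian clock genes also sat low on WT1, where 13 of 19 had their lowest value (30.7% of all genes) and the median deviation was -0.30, against 0.10 on WT2 and 0.15 on WT3. Dbp, a clock output factor, gave 3926, 6106 and 4710, and Per2, a core repressor of the clock, had log2 signals of 9.90, 10.64 and 10.91. The hour of tissue collection is not in the labels, and its part in this was not tested.

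WT2 stood apart in neutrophil genes. S100a9, a subunit of the calcium-binding dimer calprotectin, gave 18537 on WT2 against 2756 on WT1 and 3203 on WT3. S100a8, its partner, gave 20928 against 4123 and 4963. Csf3r, the receptor for granulocyte colony-stimulating factor, gave 973, 3920 and 1719 on WT1, WT2 and WT3, and Il1b, an inflammatory cytokine, gave 1504, 4187 and 3159. Clec4d, a lectin receptor of myeloid cells, gave 460, 1717 and 483. Of 18 neutrophil genes 13 were highest on WT2 (3846 of all 12393 genes) and 10 had a range of 2-fold or more (11.4% of all genes), and the median deviations were -0.05, 0.45 and -0.16. The dimmest members were Trem1, Elane and Camp. Trem1, an activating receptor, gave 121, 317 and 193, whereas Camp, a granule peptide made in the marrow, gave 62.2, 65.5 and 56.3, near the lower end of all arrays. Other myeloid lists did not stand apart on WT2, with median deviations there of 0.07 for alveolar macrophages and 0.04 for monocytes.

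Malat1, a nuclear long non-coding RNA, varied in the same array but with its probe sets at odds. The probe set of largest range gave 4654, 11081 and 1656, and a brighter one gave 7063, 23549 and 4195, both highest on WT2 and lowest on WT3. The smallest range among its other probe sets past the filter was 0.47. Low on WT2 were Itga3, an integrin of epithelial basement membrane adhesion (1385, 208 and 1548, with 2 other probe sets at ranges of 0.26 and 1.20), and Mcm2, a subunit of the replicative helicase (1697, 479 and 1410).

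WT3 stood apart in immediate early, heat shock and contractile genes. Fos, a subunit of the AP-1 factor, gave 26049 on WT3 against 8655 on WT1 and 6130 on WT2. Its relative Fosb gave 509, 447 and 1742, and Btg2, an antiproliferative immediate early gene, gave 4903, 4945 and 17976. Nr4a2, an orphan nuclear receptor, had log2 signals of 9.07, 9.48 and 10.73, while Egr3, a zinc finger factor, was highest on WT1 at 10.01, 8.32 and 9.44. Of 32 immediate early genes 18 were highest on WT3 (29.1% of all genes) and 15 had a range of 2-fold or more (11.4% of all genes). The median deviations were -0.17, -0.13 and 0.23. Jund and Ier3 did not take part, with WT3 the lowest at 12155 and 11489.

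Heat shock genes were highest on WT3 for 13 of 20 (29.1% of all genes) and lowest on WT1 for 14 (30.7% of all genes), with median deviations of -0.21, 0.03 and 0.27. Hsph1, a nucleotide exchange factor of the chaperone Hsp70, had log2 signals of 11.47, 12.08 and 12.97. Dnaja1, a co-chaperone, gave 6594, 7608 and 11472. The inducible genes Hspa1a and Hspa1b, which are near-identical copies and uncertain apart, followed another order, low on WT2. Hspa1b gave 16257, 5274 and 15973. Smooth muscle and pericyte genes were highest on WT3 for 18 of 22 (29.1% of all genes) and lowest on WT2 for 17 (36.1% of all genes), with median deviations of -0.05, -0.20 and 0.27. Cnn1, a calponin of contractile smooth muscle, gave 425, 632 and 1432, and Acta2, given above, was also lowest on WT2 and highest on WT3. Thbs1, a matrix glycoprotein released by platelets and stroma, gave 1352, 1697 and 4324.

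Among the type II, type I and club cell genes measured, 0 of 22, 0 of 16 and 0 of 17 had a range of 2-fold. The share was also low among all genes above percentile 90, at 18 of 1443. Median ranges were 0.38 for type II, 0.26 for type I and 0.42 for club cell genes, against 0.28 for genes above percentile 90 and 0.37 for all genes. WT3 was lowest for 18 of 22 type II genes, against 33.2% of all genes and 96 of the 100 brightest probe sets. For the type II list the median deviation was 0.07 on WT1, 0.07 on WT2 and -0.18 on WT3. When the arrays were given the same distribution of signals (quantile normalisation), it became 0.04, -0.00 and -0.02, and with median centring 0.06, 0.11 and -0.20. WT3 was also lowest for 41 of 44 ribosomal protein genes (33.2% of all genes). Their median deviations went from 0.04, 0.20 and -0.22 to -0.01, 0.10 and -0.09 under quantile normalisation. With median centring they were 0.03, 0.24 and -0.24. WT3 remained the lowest array for the ribosomal median under each. The interferon, mesothelial, neutrophil, immediate early and smooth muscle patterns kept their direction under quantile normalisation and under median centring. In the heat shock list WT2 turned from 0.03 to -0.01, while WT1 and WT3 kept their sides.

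**Figure D4:**
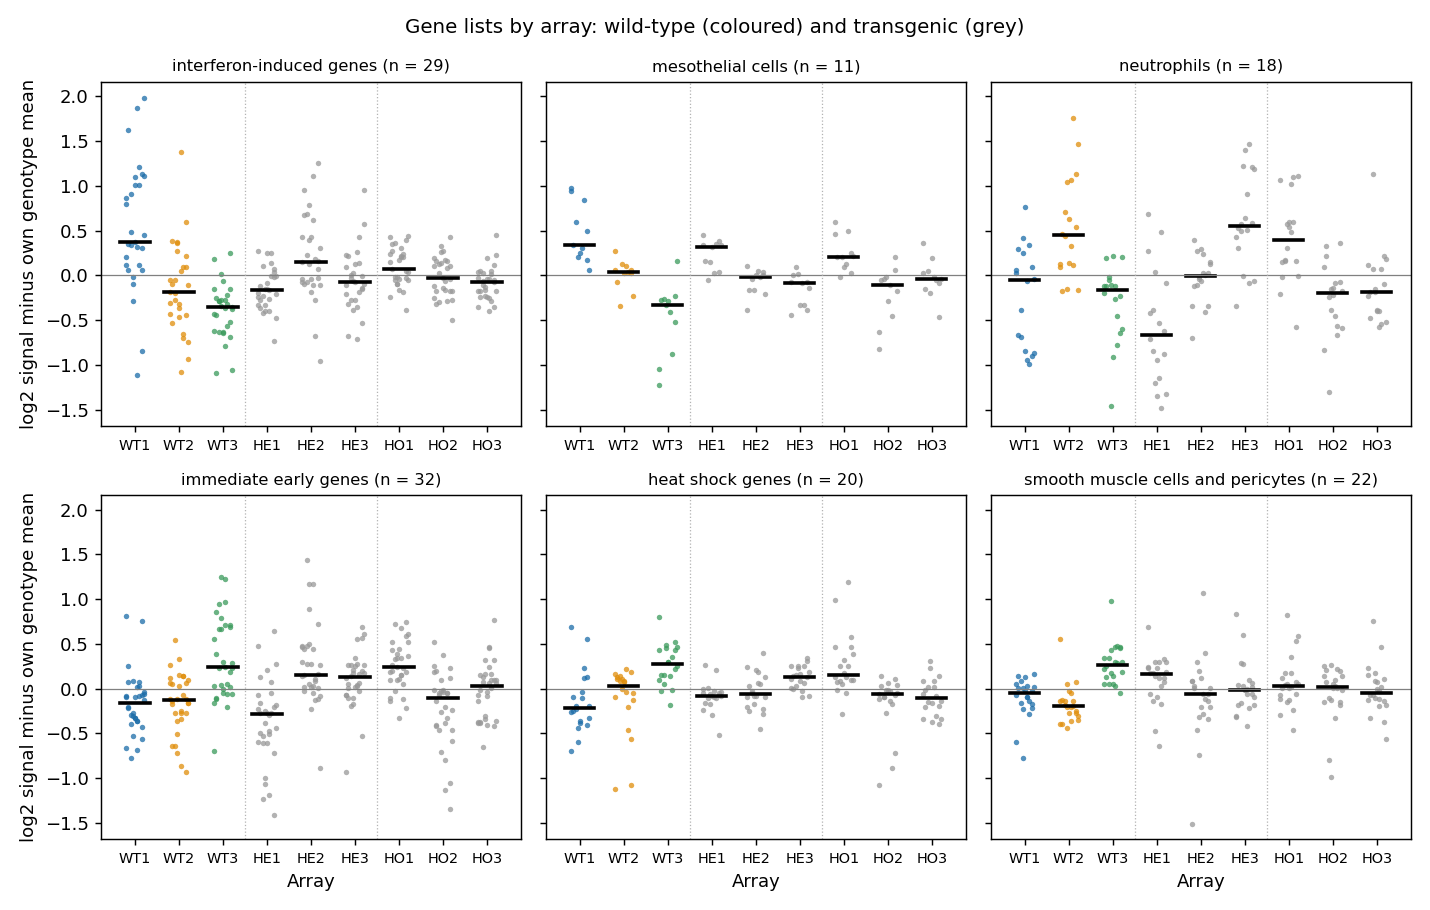
Log2 signal of each member of 6 lists minus the mean of its own genotype, by array, with wild-type arrays in colour, transgenic arrays in grey and black bars at list medians. Interferon genes are raised on WT1 (median 0.38) and on no HE or HO array to that extent, while neutrophil genes are raised on WT2 (0.45), HE3 (0.55) and HO1 (0.40).

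The samples carry numbers 1 to 3 in each genotype, and these go with the first number of the source names. Each wild-type array thus shares a number with 1 HE and 1 HO array. The 6 transgenic arrays could therefore show whether the number itself marks a shared source of variation. In a fit of genotype and number on those 6 arrays, with 2 residual degrees of freedom, limma's moderated F test for number called 0 of 13576 probe sets (0%) at an adjusted p under 0.05 (Benjamini-Hochberg), and 995 (7.33%) at an unadjusted p under 0.05. The lowest adjusted p was 0.0507, for a probe set of Car3, a carbonic anhydrase of muscle and fat. On WT1, WT2 and WT3 that probe set gave 3536, 2778 and 3530, a range of 0.35. The other Car3 probe set gave 1808, 1018 and 2033, a range of 0.998, and its adjusted p in the same F test was 0.337. Of the 417 probe sets with a 2-fold range among the wild-type arrays, 0 passed the adjusted threshold and 99 (23.7%) the unadjusted one. These probe sets were also more variable within number, with a median residual SD of 0.31 on the transgenic arrays against 0.16 for all. With HE2 or HO2 left out the adjusted count was 1 in place of 0. The higher share and this higher SD cannot be told apart with so few degrees of freedom.

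For 167 of the 417 probe sets (40.1%) both transgenic arrays of the same number deviated to the same side as the wild-type array that lay farthest out, against 36.3% of all probe sets. Over all probe sets, deviations of WT1 correlated at 0.30 with those of HE1 and 0.19 with HO1, those of WT2 at 0.05 and 0.14 with HE2 and HO2, and those of WT3 at 0.04 and 0.28 with HE3 and HO3. Correlations with other numbers ran from -0.18 to 0.13. The highest of these, WT3 with HE2, exceeded the same-number values of 0.05 and 0.04. Deviations were taken from the mean of each genotype's 3 arrays, so a higher correlation with 1 number lowers those with the others. The other numbers are therefore no independent baseline. All of these correlations are across probe sets and share the labelling and scaling of each array. Mesothelial genes were raised on all arrays of number 1, with median deviations of 0.34 on WT1, 0.32 on HE1 and 0.21 on HO1. Aldh1a2 deviated by 0.95, 0.45 and 0.60 on these arrays, with an unadjusted p of 0.0018 and an adjusted p of 0.449 in limma's moderated F test for number. Cxcl2 was low on all of them, by -1.13, -0.87 and -0.84. In the same F test its unadjusted p was 7.8e-05 and its adjusted p 0.252, so neither gene passed the adjusted threshold. Interferon-induced genes did not recur by number, with medians of -0.16 on HE1 and 0.08 on HO1, and neutrophil genes were high on arrays of 3 different numbers, WT2, HE3 and HO1.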

How the data were processed

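RNA of 9 mouse lung samples was read on Affymetrix MOE430A arrays, and the deposited values are linear intensities, 1 per probe set, scaled by the authors. A check of the values showed a mean near 1500 on every array after trimming 2% at each end. No label or header names the array software. Intensities under the 5th percentile of all values (25.5) were set to it and log2 was taken. No further normalisation was applied. Probe sets were named through GEO's platform annotation, of which 20351 matched the RefSeq gene table of GRCm38.p6 and 29 did not. Python 3.11.15, pandas 2.3.3, R 4.3.3 and limma 3.58.1 were used.

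Named genes were the 30 of highest mean percentile, up to 6 highest and 3 lowest members of each list, the 30 of largest range, up to 10 above and 10 below per array, up to 4 members of largest range per function list, the 10 steadiest bright genes, 6 with the widest probe set gap, and Sftpc, Scgb1a1, Cftr, Xist and Y-linked genes. Members and lists were chosen with earlier results of these data known. Car3 was named after its value was seen. The number test was tested on simulated data: it called 90% of log2 changes of 1 and 100% of changes of 2, with a mean of 28.4 false calls over 5 runs of 13576 probe sets. The simulated noise was normal, with the moderated SD of the fit itself. These shares therefore do not measure how many true changes the test would find on the real arrays. Array number limits the precision. Alternatives were other scalings, floors and filters, 1 probe set per gene, other list sizes and leaving out each array.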

Additional observations from a re-analysis of the deposited data

How the results depend on the processing

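Of the 100 brightest probe sets 78 were shared by all 3 wild-type arrays, and of the 50 and 200 brightest 40 and 156 were. With 1 probe set per gene the shared count was 73, and without 1 array it was 84 to 86. The count of cell type markers above the median was 245 of 451 (54.3%, against 52.8% of all genes). It became 222 with the median of a gene's probe sets and 206 with the 60th percentile as the limit. Without 1 array it was 248 to 254. Probe sets with a 2-fold range numbered 417 as reported, 403 with quantile normalisation (387 of them shared), 405 with median centring (384 shared), 3122 without the filter on dim probe sets, 179 with the filter at the 60th percentile and 203 with 1 probe set per gene. Leaving out 1 array gave 151 to 228, where fewer arrays narrow the range by construction. The median range of 0.34 was 0.20 to 0.21 without 1 array and 0.31 to 0.41 under the other settings. The number test on the transgenic arrays called 0 probe sets, and 1 with median centring, 3 with the filter at the 60th percentile, 1 with a trended and robust variance, 1 with 1 probe set per gene and 2 with all 9 arrays. Leaving out 1 transgenic array gave 0 to 1. The cause of these changes was not tested. No paired analysis was possible because the wild-type arrays were compared with no other group, and same-numbered samples are not said to share an animal, litter or day.

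Signals of different genes cannot be ordered by transcript number, and probe sets of 1 gene often disagreed. Globins and other genes whose probe sets match several symbols were left out, and 36 of 80 ribosomal protein genes could not be measured alone. The spread rests on 3 arrays whose source animals are not given. Protein sequences were not used here.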

Other observations

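Further lists are given as values. Glucocorticoid-responsive genes had their lowest value on WT1 for 11 of 21 (30.7% of all genes), with median deviations of -0.16, 0.08 and 0.04 on WT1, WT2 and WT3. Tsc22d3, a leucine zipper protein induced by glucocorticoid, gave 5463, 9657 and 9266, and Klf9 gave 10085, 15641 and 12784. Cholesterol and fatty acid synthesis genes were highest on WT1 for 16 of 24 (39.8% of all genes), with median deviations of 0.17, -0.12 and -0.03. Hmgcs1, an early enzyme of cholesterol synthesis, gave 8044, 5445 and 4620, and Fasn, fatty acid synthase, gave 6728, 4406 and 5574. MHC class II genes were highest on WT2 for 9 of 11 (3846 of all 12393 genes) and lowest on WT3 for 9 (33.2% of all genes), with H2-Aa at 21631, 23490 and 16600. T cell genes were lowest on WT1 for 11 of 19 (30.7% of all genes), with Cd3d, a subunit of the receptor complex, at 491, 1106 and 1306.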
